A study of Rattus norvegicus with 6 samples.

Results

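Axon guidance molecules are secreted or membrane-bound cues and the receptors that read them. The genes described here were the rows of the deposited expression table whose symbols begin with Sema3 to Sema7, Plxna, Plxnb, Plxnc, Plxnd, Efna, Efnb, Epha, Ephb, Slit, Robo, Ntn or Unc5, together with Nrp1, Nrp2 and Dcc. The rule gave 77 of the 17833 genes in the table, each with a mean FPKM (counted fragments scaled to the length of the gene and the size of the library) above 0 over the 6 libraries. Of these, 10 were set apart as look-alikes by symbol, namely 6 Slitrk genes, the membrane-anchored netrin-G genes Ntng1 and Ntng2, Unc5cl and Unc50, some of which are related to the guidance families, and this leaves 67 guidance ligands and receptors. The GO term axon guidance was attached in the table to 58 of the 77. Bulk RNA-seq was performed on pulmonary veins (PVs) of wild-type Sprague-Dawley (SD) rats, 3 that underwent bilateral pulmonary vein banding (BPVB group) and 3 that underwent sham surgery (sham group). By the labels, both operations took place on postnatal day 1 and the veins of the right upper lung lobe were taken on postnatal day 21, so that the sham group shares the anesthesia and the opened chest but not the constriction. The study's methods state that the sequenced rats were drawn at random from each group, and neither they nor the labels give the sex. Each library is 1 rat.

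Guidance cues were named for the way in which they attract or repel the growing tips of nerve fibers, and the same cues steer endothelial sprouts, smooth muscle and immune cells. Semaphorins signal through plexins, with neuropilins as co-receptors for most of the secreted class 3 members. Ephrins are anchored in the membrane and bind Eph receptor tyrosine kinases on the neighboring cell, and both partners can pass a signal inward. Slits bind Robo receptors, and netrins bind Dcc, neogenin and the Unc5 receptors. In blood vessels, ephrin-B2 marks arteries and EphB4 marks veins, and plexin-D1, neuropilin-1 and Unc5b are known from endothelial cells.

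The libraries held between 26078189 and 29725808 counted fragments in the BPVB group and between 23439506 and 23821184 in the sham group, as recovered from the deposited values. Markers of the vein wall were present in every library, with summed FPKM of 5467 to 5516 against 5865 to 5898 for 9 smooth muscle genes (BPVB against sham) and of 1288 to 1305 against 1443 to 1460 for 12 endothelial genes, and the 9 cardiomyocyte genes summed to 15770 to 16183 against 21527 to 21941. Several marker lists differed between the groups, where 17.2% of all tested genes were called higher and 14.3% lower (limma, adjusted p under 0.05). Of the smooth muscle genes, 2 were higher and 5 lower, of the cardiomyocyte genes 3 and 6, and of the endothelial genes 0 and 7. Of 15 neuronal markers, 13 were tested and 10 were lower in the BPVB group (summed FPKM 19.8 to 24.4 against 48.7 to 51.9), and Phox2a, Chat and Slc18a3 were at 0 in all BPVB libraries. Of 10 Schwann cell markers, 7 were lower and 2 higher (143.5 to 147.1 against 227.1 to 231). Of 8 macrophage markers, 7 were higher (678.8 to 699.5 against 227.1 to 236.8), of 7 lymphatic endothelial markers, 5 were higher and 1 lower (190 to 203.4 against 81.9 to 83.3), and of 13 lung epithelial markers, 11 were tested, with 10 higher and 1 lower (673 to 724.6 against 137.5 to 142.8), while Scgb3a2 and Foxj1 were barely detected in either group (0 in all BPVB libraries, sham means of 0.0381 and 0.0122 FPKM). The macrophage sum included Lyz2 at a mean of 592.1 against 163.3 FPKM, and the lymphatic sum Ccl21 at 138.5 against 31.9. Of 8 fibroblast markers, 4 were higher and 2 lower (4060 to 4065 against 3574 to 3596), and of 6 mesothelial markers, 5 were tested, with 2 higher and 2 lower (7.66 to 9.61 against 5.84 to 7.92). The part of these lists in the results on guidance genes was not tested, and in bulk tissue fewer cells of a type and less RNA per cell cannot be told apart.

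Guidance ligands and receptors changed in both directions after BPVB. Of the 77 members, 63 had a mean of at least 0.1 FPKM and were tested with limma on log2(FPKM + 0.5), and 31 of these passed an adjusted p of 0.05 (Benjamini-Hochberg over all 15150 tested genes), 16 higher and 15 lower in the BPVB group. Over all tested genes, 31.5% passed in either direction, 17.2% higher and 14.3% lower, beside 49.2% of the tested members. Among genes averaging at least 1 FPKM, the share was 35.2% of 12157 genes and 23 of 43 members (53.5%). Rises and falls were balanced on this scale, with a median log2 fold change of -0.03 over the tested members and 0.02 over all tested genes. Among those averaging at least 1 FPKM, the median was -0.11 for the members and 0.02 for all genes. On this scale Slit2 and Sema4a passed both an adjusted p of 0.05 and a log2 fold change above 1 (DEGs), a count of 2 that was 0 with a pseudocount of 1, 7 with a pseudocount of 0.1, 6 with TPM and 9 with limma-voom. On the same scale, 3.27% of all tested genes were DEGs in either direction and 2.24% with higher expression. With limma, 0 members were DEGs with lower expression, where 1.03% of all genes were, and since the lowest log2 fold change on this scale was -0.79, this held at an unadjusted p as well. With limma-voom the count was also 0 at the adjusted p, although Slitrk1 reached a log2 fold change of -1.36 there without being called. Among members under 0.1 FPKM, Epha8 (-2.98), Slitrk4 (-2.14), Slitrk5 (-1.39) and Slit1 (-1.11) were also below -1 there and not called. All 3 values of one group lay outside the range of the other in 38 of the 63 tested members (60.3%), 19 with the BPVB group above and 19 with it below, which applied to 45.6% of all tested genes, 25.2% above and 20.5% below. Among the 57 tested guidance genes without the look-alikes, 16 were higher and 14 lower, spread over 31 ligands (8 higher, 8 lower) and 26 receptors (8 higher, 6 lower). An exact permutation test of 3 rats against 3 cannot give a p under 0.1.

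**Figure D1:**
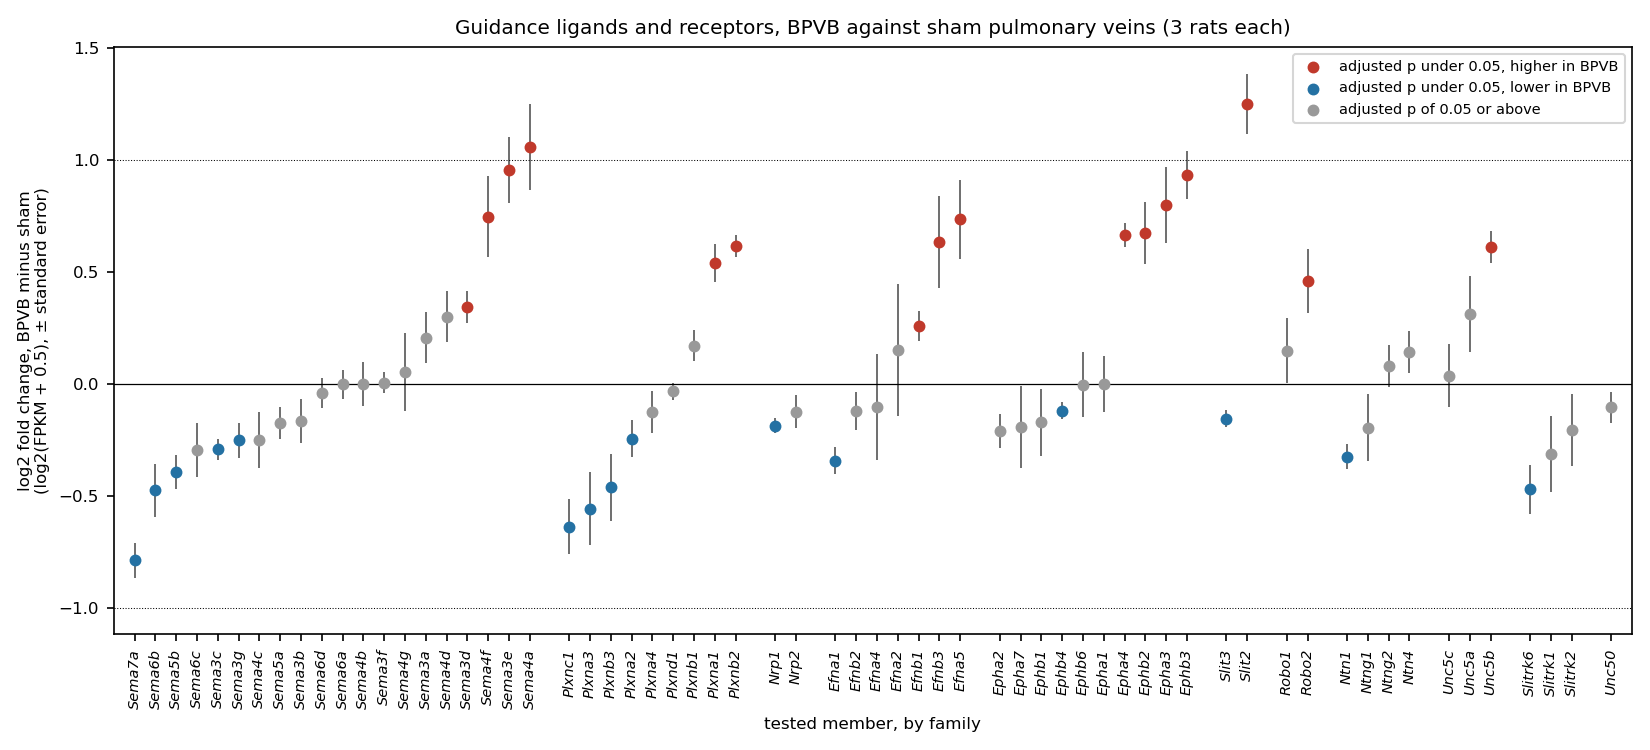
Log2 fold change of FPKM + 0.5 (BPVB minus sham, ± standard error from limma, 3 rats per group) of the 63 tested members, ordered by family along the horizontal axis. Red and blue points passed an adjusted p of 0.05, and the dotted lines mark 1 and -1. Every family with more than 4 tested members holds points on both sides of 0, and 2 points, Sema4a and Slit2, lie beyond a dotted line.

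The most abundant guidance transcripts were those of vascular receptors and of 1 Slit. FPKM is scaled by gene length, so that levels can be compared between genes. Nrp1, Plxnd1, Ephb4 and Slit3 together held 40.2% of the summed FPKM of the 67 guidance genes in the BPVB group and 42.5% in the sham group. A mean of at least 10 FPKM was found for 17 members, 26 lay between 1 and 10, 20 between 0.1 and 1, and 14 under 0.1. Several members that rose had low levels. Slit2, Sema3e, Sema4f, Efna5 and Robo2 were all under 0.4 FPKM in the sham group, and on the log2(FPKM + 0.5) scale their rises are understated, whereas Sema4a and Ephb3 rose from sham means of 1.33 and 2.09 FPKM.

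**Figure D2:**
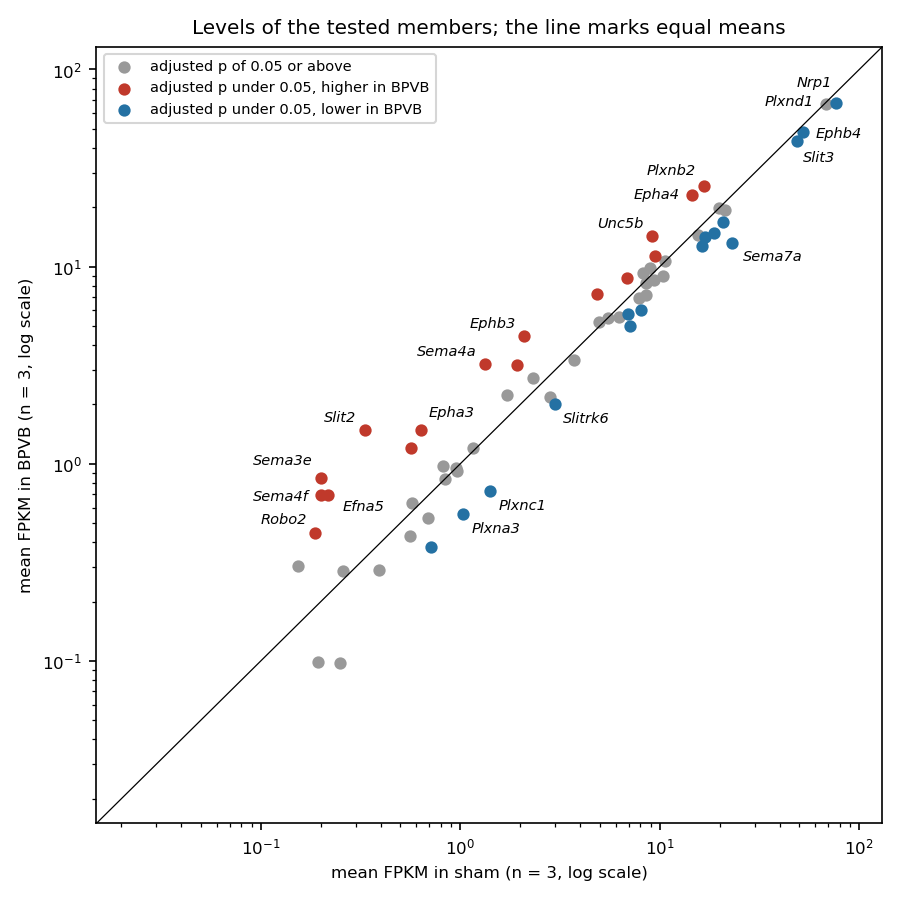
Mean FPKM of each tested member in the sham group (horizontal, log scale) and in the BPVB group (vertical, log scale), n = 3 rats each, with the line of equal means. The 4 most abundant members, Nrp1, Plxnd1, Ephb4 and Slit3, lie close to the line, and the members farthest above it, Slit2 and Sema3e, have sham means of 0.333 and 0.2 FPKM.

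All 20 semaphorins of the table were tested, and 4 were higher and 5 lower in the BPVB group (45% called, beside 31.5% of all tested genes). The summed FPKM of the family was 141.5, 137.7 and 140.9 in the BPVB group and 161.1, 158.4 and 156.8 in the sham group. The sums did not overlap, although the called members moved both ways. The sum averaged 140 against 158.8, and Sema7a alone 13.2 against 23.1. Among the secreted class 3 semaphorins, which inhibit or guide endothelial and neural growth, Sema3e and Sema3d were higher and Sema3c and Sema3g lower. Sema3e (NCBI Gene 296789), which can signal through plexin-D1 without a neuropilin, had FPKM of 0.794, 0.802 and 0.957 in the BPVB rats and 0.147, 0.299 and 0.154 in the sham rats. The lowest BPVB value exceeded the highest sham value, and between 239 and 325 fragments lay behind the BPVB values, against 40 to 80 in the sham group. Its mean FPKM was 4.25 times as high, with a log2 fold change of 0.95 (standard error 0.15, adjusted p = 0.00123, limma), which was 2.16 with limma-voom on the fragments. Sema3d rose by 0.34.

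Sema3c (NCBI Gene 296787), a neuropilin ligand with roles in the outflow tract and vessels, was among the highest semaphorins, at 17.4, 16.6 and 16.4 FPKM in the BPVB rats and 20.7, 20.4 and 21.2 in the sham rats. The BPVB values were all lower, with a log2 fold change of -0.29 (standard error 0.05, adjusted p = 0.00185). Sema3g (NCBI Gene 290562), made by arterial endothelium, had 13.9, 12.9 and 15.6 FPKM against 17.2, 17.7 and 15.8. BPVB rat 3 reached nearly the lowest sham value. The log2 fold change of Sema3g was -0.25 (standard error 0.08, adjusted p = 0.0361), and without BPVB rat 1, BPVB rat 2, sham rat 1 or sham rat 2 its adjusted p was 0.0853, 0.109, 0.0975 or 0.111.

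Sema3f (NCBI Gene 315996), which binds neuropilin-2 and restrains vessel growth, had similar values in both groups, at 20.3, 19.6 and 19.6 FPKM against 20.1, 19.3 and 19.9. The ranges overlapped in part, with a log2 fold change of 0.00 (standard error 0.05, adjusted p = 0.953). Sema3a (NCBI Gene 29751), the classical repellent for sensory and sympathetic fibers and a neuropilin-1 ligand, had 2.79, 2.57 and 2.85 FPKM against 2.56, 2.37 and 2.01. The groups did not overlap, by a margin of less than 0.01 FPKM between the nearest values, and the call was not made (log2 fold change 0.21, standard error 0.11, adjusted p = 0.209), whereas limma-voom gave an adjusted p of 0.0382. Sema3b was not called either, with a log2 fold change of -0.17.

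The membrane-bound semaphorins also changed in both directions. Sema4a (NCBI Gene 310630), which is known from immune cells and binds plexins of the B and D groups, had FPKM of 3.22, 3.43 and 2.95 in the BPVB rats and 1.96, 1.01 and 1.01 in the sham rats. Sham rat 1 stood above the other sham rats but below every BPVB rat. The mean was 2.41 times as high (log2 fold change 1.06, standard error 0.19, adjusted p = 0.00305). Without sham rat 2 or sham rat 3 the log2 fold change was 0.94, under the threshold for DEGs, with adjusted p of 0.0126 and 0.0129. Macrophage markers also moved upward in these libraries, as given above, and their part in the change of Sema4a was not tested.

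Sema7a (NCBI Gene 315711), which is tethered by a lipid anchor and binds plexin-C1 and integrins, was the highest of the 20 semaphorins in the sham group and the fourth highest in the BPVB group. Its FPKM was 11.9, 12.8 and 14.96 in the BPVB rats and 22.7, 23.4 and 23.2 in the sham rats. The groups were far apart, with the sham mean 1.75 times the BPVB mean. The log2 fold change of -0.79 (standard error 0.08, adjusted p = 9.49e-05) was the largest fall of any tested member on log2(FPKM + 0.5). By the ratio of means it was not, with 1.94 for Plxnc1 and 2.54 for Slitrk1, which was not called. With limma-voom the log2 fold change was -0.80 for Sema7a, -0.96 for Plxnc1 and -1.36 for Slitrk1 (not called). Relative to Sema3f in the same library, Sema7a was at 58.6%, 65.4% and 76.2% in the BPVB rats and at 113%, 121% and 117% in the sham rats.

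Sema4d (NCBI Gene 306790), the plexin-B1 ligand of lymphocytes and platelets, had 2.22, 2.23 and 2.24 FPKM against 1.95, 1.59 and 1.62. No values overlapped, and the log2 fold change of 0.30 (standard error 0.11) did not pass with limma (adjusted p = 0.0745) but did with limma-voom (0.00735). Sema6a (NCBI Gene 361324), a transmembrane ligand of plexin-A2 and plexin-A4, was at 11.3, 10.5 and 10.1 FPKM against 10.9, 10.5 and 10.5. Its groups overlapped, with a log2 fold change of -0.00 (standard error 0.07, adjusted p = 0.976). Of the remaining membrane-bound semaphorins, Sema4f rose by 0.75 while Sema5b fell by 0.39 and Sema6b fell by 0.48 on the log2 scale, and the adjusted p of Sema6b was 0.0532 without sham rat 1. The other 6 (Sema4b, Sema4c, Sema4g, Sema5a, Sema6c and Sema6d) had log2 fold changes between -0.30 and 0.05 and were not called, but limma-voom called Sema4c (adjusted p = 0.0194), Sema5a (0.00694) and Sema6c (0.0192) lower. In addition, limma called Sema4c lower without BPVB rat 1 (0.0277), and with quantile normalization Sema6c (0.0421) and Sema5a (0.05 after rounding).

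The 250 bases upstream of the annotated start (RefSeq promoters, GRCr8) are shown for 5 called semaphorins, plexins and Eph receptors, picked after their values were seen, to set beside those values. The RefSeq table matched 62 of the 77 members by NCBI Gene number. Capitals mark matches, on either strand, to the GC box GGGCGG, the CCAAT box CCAAT or the E-box CACGTG, and the overlapping GC box and CCAAT box at the start of the Ephb3 sequence are written as 1 run. Each sequence reads 5′ to 3′ on the strand of its gene and ends at the base before the start. Sema4a lies at chr2:176212259-176212508 (minus strand), Sema3e at chr4:21510375-21510624 (minus), Sema7a at chr8:67244068-67244317 (plus), Plxnc1 at chr7:31430606-31430855 (minus) and Ephb3 at chr11:93363776-93364025 (minus).
Sema4a: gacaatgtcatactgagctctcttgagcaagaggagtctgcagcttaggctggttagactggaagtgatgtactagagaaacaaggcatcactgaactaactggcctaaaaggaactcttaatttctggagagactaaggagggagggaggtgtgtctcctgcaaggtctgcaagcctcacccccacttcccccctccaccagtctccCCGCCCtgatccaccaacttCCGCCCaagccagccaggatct
Sema3e: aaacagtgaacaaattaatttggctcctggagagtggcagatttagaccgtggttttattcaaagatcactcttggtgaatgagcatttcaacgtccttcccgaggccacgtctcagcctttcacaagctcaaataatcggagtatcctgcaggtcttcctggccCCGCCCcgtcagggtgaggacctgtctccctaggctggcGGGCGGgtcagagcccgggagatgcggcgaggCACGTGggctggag
Sema7a: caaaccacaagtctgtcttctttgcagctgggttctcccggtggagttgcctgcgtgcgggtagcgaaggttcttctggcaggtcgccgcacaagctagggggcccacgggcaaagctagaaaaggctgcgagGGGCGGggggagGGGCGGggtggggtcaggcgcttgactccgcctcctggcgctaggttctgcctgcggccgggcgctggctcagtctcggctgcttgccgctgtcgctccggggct
Plxnc1: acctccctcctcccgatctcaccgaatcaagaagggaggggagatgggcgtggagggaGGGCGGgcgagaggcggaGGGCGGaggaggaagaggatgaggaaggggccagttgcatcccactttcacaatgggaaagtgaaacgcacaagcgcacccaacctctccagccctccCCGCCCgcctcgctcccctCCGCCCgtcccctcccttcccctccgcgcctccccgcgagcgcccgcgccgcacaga
Ephb3: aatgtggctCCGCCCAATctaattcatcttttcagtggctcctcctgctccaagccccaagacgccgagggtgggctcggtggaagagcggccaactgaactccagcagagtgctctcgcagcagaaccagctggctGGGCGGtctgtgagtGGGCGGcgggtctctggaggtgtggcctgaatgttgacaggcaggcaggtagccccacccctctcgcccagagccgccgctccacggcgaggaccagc

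Each of these 5 promoters held at least 2 GC boxes, and Plxnc1 held 4. Over the 62 members, 51.6% had a GC box in this window, compared with 30.5% of the 33469 promoters of the same length in the table. The share did not separate the directions of change, since a GC box was found in 6 of 12 members called higher (50%), 8 of 14 called lower (57.1%) and 12 of 24 tested and not called (50%). A CCAAT box was found in 32.3% of members and 34% of all promoters, the E-box in 6.45% and 5.59%, and the AP-1 motif TGANTCA in 3.23% and 6.34%. The TATA box TATAAA was found in 0 of 62 members and in 12.9% of all promoters. These matches describe the letters of the window only.

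Plexins, the receptors of semaphorins, are single-pass proteins that act on small GTPases and the cytoskeleton. All 9 were tested, with 2 higher and 4 lower (66.7% called, beside 31.5% of all tested genes). Their summed FPKM was 118.9, 120.5 and 119.7 in the BPVB rats, above the 110.5, 114.2 and 110.7 of the sham rats. The sum averaged 119.7 against 111.8, and Plxnb2 alone 25.7 against 16.6, a larger rise than that of the sum. The median log2 fold change of the 9 was -0.13. Plxnb2 (NCBI Gene 315217), a receptor for class 4 semaphorins with broad expression, had 24.5, 26.7 and 25.9 FPKM against 16.7, 16.3 and 16.7. The gap between the groups was many times the spread within them, with a mean 1.55 times as high (log2 fold change 0.62, standard error 0.05, adjusted p = 2.61e-05). Plxna1, a partner of neuropilins, was higher too, with a log2 fold change of 0.54.

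Plxnc1 (NCBI Gene 362873), the plexin that binds Sema7a, had 0.810, 0.666 and 0.698 FPKM in the BPVB rats and 1.38, 1.31 and 1.53 in the sham rats. It was lower in every BPVB rat, and the sham mean was 1.94 times the BPVB mean (log2 fold change -0.64, standard error 0.12, adjusted p = 0.00438). Sema7a and its plexin were thus both lower in the BPVB group. Plxnd1 (NCBI Gene 312652), the endothelial receptor for Sema3e, was the highest plexin and differed little, at 67.2, 67.5 and 65.3 FPKM against 66.3, 71.3 and 67.3. Its groups overlapped (log2 fold change -0.03, standard error 0.04, adjusted p = 0.532), beside the rise of Sema3e.

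Among the other plexins, Plxna3 fell by 0.56, Plxnb3 fell by 0.46 and Plxna2 fell by 0.25 on the log2 scale, all called by a small margin with limma. With limma-voom the log2 fold changes were -0.95 (adjusted p = 0.00104), -0.90 (0.0159) and -0.27 (0.000644). The adjusted p of Plxna3 was between 0.0671 and 0.0828 without BPVB rat 2 or any 1 of the sham rats. That of Plxnb3 was between 0.0543 and 0.134 without any 1 of the BPVB rats, sham rat 2 or sham rat 3, and that of Plxna2 was between 0.0665 and 0.143 without BPVB rat 2, BPVB rat 3 or any 1 of the sham rats. Plxnb1, the receptor for Sema4d, was not called (log2 fold change 0.17, adjusted p = 0.0913), although its groups did not overlap and limma-voom called it higher (adjusted p = 0.00687). Plxna4 was not called (-0.13).

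Of the neuropilins, which bind both class 3 semaphorins and vascular endothelial growth factors, Nrp1 was called lower. Nrp1 (NCBI Gene 246331) was the most abundant of all members, at 68.2, 66.7 and 67.2 FPKM in the BPVB rats and 74.9, 77.6 and 78.0 in the sham rats. Although the groups did not overlap, the difference was small, with a log2 fold change of -0.19 (standard error 0.03, adjusted p = 0.00228). Nrp2 (NCBI Gene 81527), which is typical of veins and lymphatics, had 9.39, 8.12 and 8.29 FPKM against 9.33, 9.35 and 9.53. BPVB rat 1 lay within the sham range, for a log2 fold change of -0.13 (standard error 0.07, adjusted p = 0.231). The endothelial markers fell in the same direction as Nrp1, 7 of 12 being called lower and 0 higher, with Cdh5 at a log2 fold change of -0.34, Pecam1 at -0.17 and Vwf not called (-0.03), and their part in the change of Nrp1 was not tested.

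**Figure D3:**
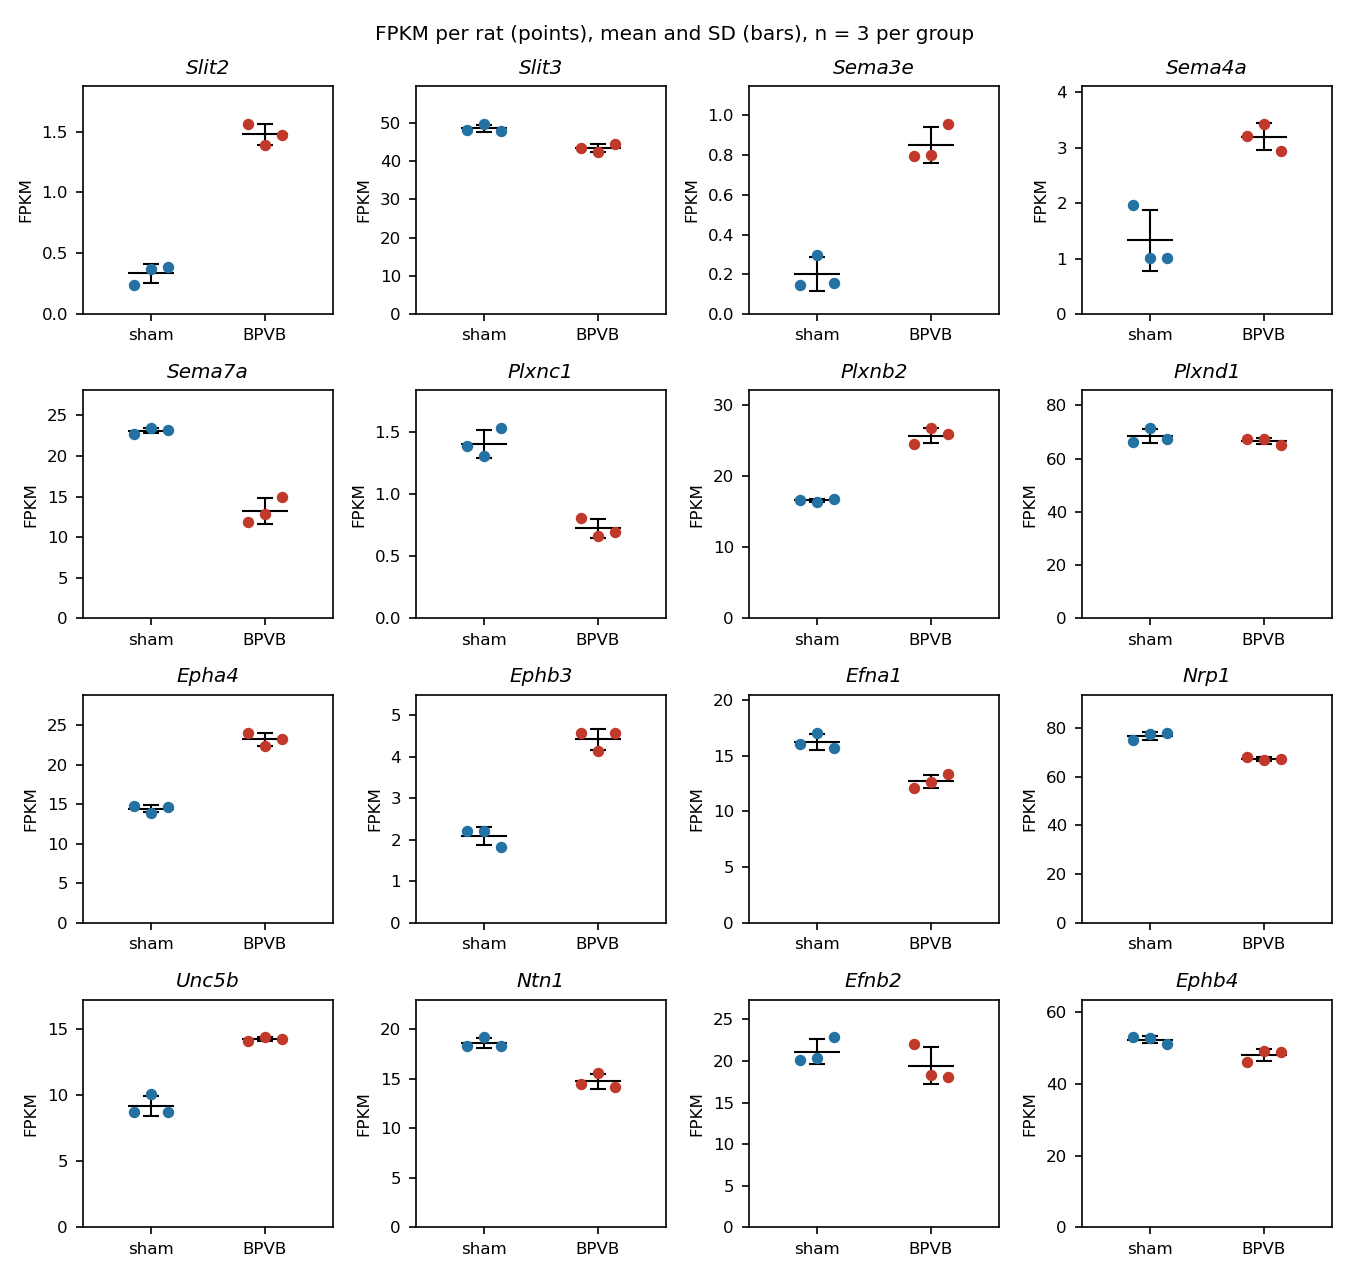
FPKM of 16 members in each rat (points; blue sham, red BPVB), with the mean and SD as bars, n = 3 per group; every vertical axis starts at 0 and has its own scale. The groups of Slit2, Sema3e, Sema7a, Plxnb2, Epha4, Ephb3 and Unc5b stand apart, while those of Plxnd1 and Efnb2 overlap.

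Of 8 ephrins, 7 were tested, and 3 were higher and 1 lower (57.1% called, beside 31.5% of all tested genes). Efna1 (NCBI Gene 94268), an endothelial ligand induced by inflammatory cytokines and a partner of EphA2, had 12.1, 12.6 and 13.3 FPKM in the BPVB rats and 16.0, 17.02 and 15.7 in the sham rats. All BPVB values were lower (log2 fold change -0.34, standard error 0.06, adjusted p = 0.00255). Efna5 (NCBI Gene 116683), a repellent for retinal and other axons, went the other way from a low level, at 0.577, 0.569 and 0.946 FPKM against 0.300, 0.115 and 0.234. Every BPVB value was higher, BPVB rat 3 most of all, and the mean was 3.22 times as high (log2 fold change 0.73, standard error 0.18, adjusted p = 0.0125, and 1.75 with limma-voom). Efnb1 (0.26) and Efnb3 (0.63) were called higher, but less firmly. Without BPVB rat 2, BPVB rat 3, sham rat 2 or sham rat 3 the adjusted p of Efnb1 was between 0.0555 and 0.0615, and without any 1 of the BPVB rats, sham rat 1 or sham rat 3 that of Efnb3 was between 0.0637 and 0.121. The log2 fold change of Efnb3 was 0.38 without sham rat 3. Efna2 (0.15) and Efna4 (-0.10) were not called.

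Of 14 Eph receptors, 10 were tested, and 4 were higher and 1 lower (50% called, beside 31.5% of all tested genes). Their summed FPKM was 90, 89.5 and 90.5 in the BPVB rats and 83.6, 84.9 and 81.8 in the sham rats. The sum averaged 90 against 83.4, and Epha4 alone 23.2 against 14.45, a larger rise than that of the sum. Epha4 (NCBI Gene 316539), which is unusual in binding ephrins of both classes, gave the smallest adjusted p of all members, with 23.99, 22.3 and 23.2 FPKM against 14.8, 13.9 and 14.6. The groups were well separated, with the BPVB mean 1.604 times the sham mean (log2 fold change 0.66, standard error 0.05, adjusted p = 2.24e-05). Ephb3 (NCBI Gene 287989), a receptor for B-type ephrins, had 4.58, 4.13 and 4.57 FPKM against 2.21, 2.22 and 1.84. It was 2.12 times as high on average and higher in each BPVB rat (log2 fold change 0.93, standard error 0.11, adjusted p = 0.000209). Epha3 (0.80) and Ephb2 (0.67) were also higher, with mean FPKM of 1.49 and 1.203 in the BPVB group and 0.633 and 0.566 in the sham group.

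Epha2 (NCBI Gene 366492), the main endothelial receptor for ephrin-A1, had 9.68, 8.72 and 8.40 FPKM in the BPVB rats and 9.92, 11.1 and 10.2 in the sham rats. The groups did not overlap, but BPVB rat 1 lay just under sham rat 1. Its log2 fold change of -0.21 (standard error 0.08) missed the threshold (adjusted p = 0.0681) and passed it without BPVB rat 1 (adjusted p = 0.0416), with median-of-ratios scaling (0.0413), with quantile normalization (0.0337) and with limma-voom (0.0283). The other 4 tested receptors, Epha1, Epha7, Ephb1 and Ephb6, were under 1 FPKM in each group on average, with log2 fold changes between -0.19 and -0.00, and were not called.

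Ephb4 (NCBI Gene 686310), the venous receptor for ephrin-B2, was the highest of the Eph receptors, at 46.3, 49.2 and 48.9 FPKM against 53.0, 52.8 and 51.2. The BPVB values were lower by a small amount, and the call rested on the full set of libraries (log2 fold change -0.12, standard error 0.04, adjusted p = 0.0429), since leaving out any 1 of the 6 gave an adjusted p between 0.054 and 0.123. Efnb2 (NCBI Gene 306636), its arterial ligand, had 22.05, 18.3 and 18.0 FPKM against 20.2, 20.4 and 22.8. Those ranges overlapped (log2 fold change -0.12, standard error 0.08, adjusted p = 0.317). Within each library, Efnb2 stood at 47.7%, 37.1% and 36.9% of Ephb4 in the BPVB rats and at 38.1%, 38.6% and 44.6% in the sham rats. The mean log2 ratio of the BPVB rats was -1.31 ± 0.21 (SD, n = 3), beside -1.31 ± 0.126 for the sham rats (exact permutation test, two-sided, p = 1).

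Slit proteins are large secreted ligands that repel axons and act on endothelial cells through Robo receptors. Slit2 (NCBI Gene 360272) showed the largest rise of all tested members on log2(FPKM + 0.5), with 1.56, 1.39 and 1.48 FPKM in the BPVB rats and 0.239, 0.372 and 0.387 in the sham rats. The values rest on 287 to 347 fragments in the BPVB group and 45 to 73 in the sham group, and no values overlapped. Mean FPKM was 4.43 times as high, with a log2 fold change of 1.25 (standard error 0.13, adjusted p = 0.000144), or 2.17 with limma-voom. Slit3 (NCBI Gene 83467), by far the more abundant paralog, went slightly down, at 43.5, 42.4 and 44.6 FPKM against 48.1, 49.7 and 47.8. All BPVB values were lower (log2 fold change -0.16, standard error 0.04, adjusted p = 0.0126). Within each library, Slit2 stood at 3.28% to 3.59% of Slit3 in the BPVB rats and at 0.497% to 0.81% in the sham rats.

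Both Robo receptors of the table had low levels. Robo2 (NCBI Gene 84409) had 0.386, 0.385 and 0.571 FPKM in the BPVB rats and 0.170, 0.209 and 0.184 in the sham rats. Its BPVB values were all higher, with a mean 2.39 times that of the sham group (log2 fold change 0.46, standard error 0.14, adjusted p = 0.0400, and 1.24 with limma-voom), but leaving out any 1 of the 6 libraries gave an adjusted p between 0.0612 and 0.121. Robo1 (NCBI Gene 58946), the more widely expressed receptor, had 0.995, 1.17 and 0.741 FPKM against 0.809, 0.813 and 0.827. The BPVB rats lay on both sides of the sham rats (log2 fold change 0.15, standard error 0.14, adjusted p = 0.480). The endothelial receptor Robo4 had no row under that symbol in the table.

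Netrins are laminin-like secreted cues that attract through Dcc and repel through Unc5 receptors. Ntn1 (NCBI Gene 114523) had 14.5, 15.6 and 14.2 FPKM in the BPVB rats and 18.3, 19.2 and 18.3 in the sham rats. It was lower in every BPVB rat (log2 fold change -0.33, standard error 0.06, adjusted p = 0.00226). Ntn4 (NCBI Gene 299737), a basement membrane netrin that binds laminin, had 10.4, 9.77 and 9.42 FPKM against 9.39, 7.73 and 9.73. Its ranges overlapped, with a log2 fold change of 0.14 (standard error 0.09, adjusted p = 0.286).

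Unc5b (NCBI Gene 60630), the netrin receptor of endothelial tip cells and arteries, moved opposite to Ntn1, at 14.1, 14.4 and 14.2 FPKM against 8.69, 10.1 and 8.75. The BPVB values lay within 0.3 FPKM of each other and all above the sham values, with a mean 1.55 times as high (log2 fold change 0.61, standard error 0.07, adjusted p = 0.000214). Unc5a (0.31) and Unc5c (0.04) were tested and not called. Dcc (NCBI Gene 25311), the attractive receptor, was barely detected, at 0.0816, 0.0152 and 0.113 FPKM against 0.0833, 0.0803 and 0.0208, from 4 to 34 fragments per library, and was under the threshold for testing.

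Of the look-alikes, Slitrk6 (NCBI Gene 290467), a transmembrane protein of sensory neurons and not a Slit, had 2.09, 2.15 and 1.79 FPKM in the BPVB rats and 3.11, 2.98 and 2.84 in the sham rats. It was lower in every BPVB rat (log2 fold change -0.47, standard error 0.11, adjusted p = 0.00986), as were 10 of 13 tested neuronal markers, whose part in its change was not tested. Unc50 (NCBI Gene 192356), an intracellular membrane protein, had 14.3, 14.4 and 14.6 FPKM against 14.1, 16.1 and 16.6, with sham rat 1 under the BPVB rats (log2 fold change -0.11, standard error 0.07, adjusted p = 0.265). Slitrk1, Slitrk2, Ntng1 and Ntng2 were tested and not called.

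The 14 members under a mean of 0.1 FPKM had at most 34 fragments in any library and means from 0.0099 (Epha6) to 0.094 (Efna3), so that little can be said of them at this depth. They are Dcc, Efna3, Epha5, Epha6, Epha8, Epha10, Ntn3, Ntn5, Slit1, Slitrk3, Slitrk4, Slitrk5, Unc5cl and Unc5d. As examples picked after their values were seen, Efna3 had 10, 3 and 23 fragments in the BPVB rats and 0, 0 and 2 in the sham rats, and Epha8 had 0 in each BPVB rat and 1, 10 and 2 in the sham rats. A count of 0 allows up to 3 fragments, and such limits cover counting error only. The lowest tested member was Slitrk2, with a mean of 0.146 FPKM.

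Downstream of the receptors lie co-receptors, adaptors, GTPases and regulators of the cytoskeleton. From a list of 63 such genes outside the families above, 60 were tested, with 12 higher and 12 lower (40%, beside 31.5% of all tested genes) and a median log2 fold change of 0.03. Their groups did not overlap in 43 of 60 (71.7%, beside 45.6% of all tested genes). The genes named next are examples picked after their values were seen and leave out the largest rise of the list. Among genes that link the receptors to actin, Enah (0.72) and Vasp (0.35) were higher and Ablim3 (-0.75) and Ablim1 (-0.20) lower.

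Neo1, the neogenin receptor of netrins and RGM proteins, was higher, at 18.2 ± 0.599 FPKM against 12.6 ± 0.478 (log2 fold change 0.52), whereas its ligands Rgma (-0.40) and Rgmb (-0.35) were lower. Flrt2, a ligand of Unc5 receptors (0.73), and Srgap3, a GTPase activator recruited by Robo (0.71), were higher. Of the Crmp family, mediators of semaphorin signals, Crmp1 (-0.58), Dpysl5 (-0.55) and Dpysl2 (-0.14) were lower and Dpysl3 (-0.11) was called with limma-voom (adjusted p = 0.00575) but not with limma (0.0612). Crmp1 and Dpysl5 were at low levels, and their log2 fold changes were -1.61 and -1.74 with limma-voom. Dpysl4 (0.41) was called higher with limma (adjusted p = 0.0458) but not with limma-voom (0.133). L1cam, an adhesion protein of nerve fibers, was lower (-0.55), as were the neuronal and Schwann cell markers given above, and whether these changes go together was not tested.

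Of the 31 called members, 22 kept their call in every alternative that tested them, 13 higher and 9 lower, and 9 lost it when at least 1 library was left out. Those kept were Slit2, Sema4a, Sema3e, Ephb3, Epha3, Sema4f, Efna5, Ephb2, Epha4, Plxnb2, Unc5b, Plxna1 and Sema3d among the higher and Sema7a, Plxnc1, Slitrk6, Sema5b, Efna1, Ntn1, Sema3c, Nrp1 and Slit3 among the lower. In 0 of the 31 did the direction change under any alternative.

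**Figure D4:**
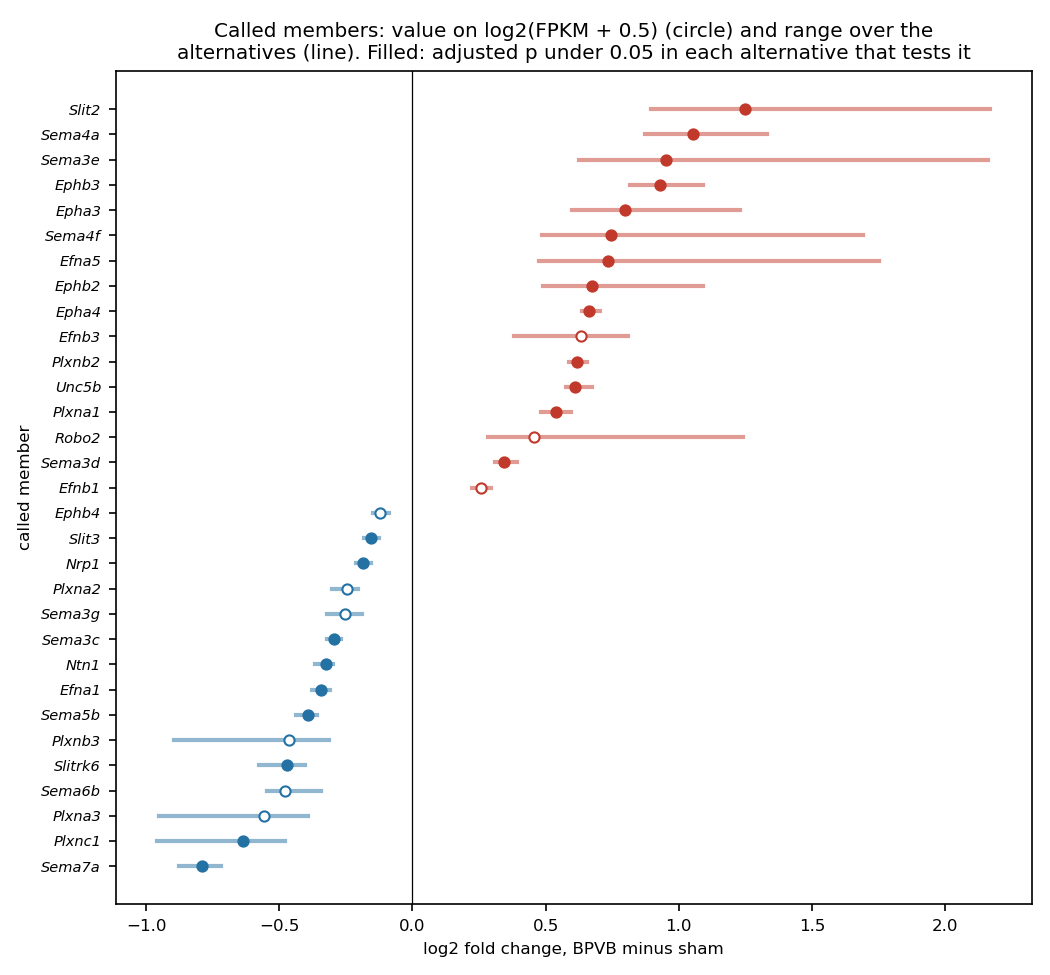
Log2 fold change (BPVB minus sham) of the 31 called members on log2(FPKM + 0.5) (circles) and its range over the alternatives (lines). Filled circles mark the 22 members whose adjusted p stayed under 0.05 in each alternative that tested them and open circles the 9 others, and no line crosses 0.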

How the data were processed

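Pulmonary vein RNA was sequenced from 3 rats with BPVB and 3 with sham surgery, and the library kit is named differently in the labels (NEBNext Ultra) and in the study's methods (VAHTS Universal V6). The authors mapped the reads and counted them per gene, with HISAT and HTSeq-count by the study's methods, while the submitters' processing notes list HISAT2 2.0.5, StringTie 1.3.3b, featureCounts 1.5.0-p3 and DESeq2 1.20.0. They deposited FPKM, with 1 value per gene and rat. The genome build, the annotation and the strand setting of the counting are not given in the sources used here, so that reads of overlapping antisense genes may be included. The columns were matched to the rats by the initial and the number of their titles, and of the columns with values per rat 0 were not used.

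The whole-number steps of each gene's FPKM gave back the counted fragments for 100% of 17833 genes (for low genes, as the smallest fitting number). They gave the library totals and the limit of 3 fragments at a count of 0, and served limma-voom over genes with at least 10 fragments. The main test was limma 3.58.1 in R 4.3.3 (lmFit, eBayes with trend) on log2(FPKM + 0.5), for the 15150 genes averaging at least 0.1 FPKM, two-sided, with Benjamini-Hochberg adjustment over all of them. The study's methods name DESeq2 for counts, which was not run. The main test kept to the deposited unit, FPKM, with limma-voom on the recovered fragments as an alternative. The pseudocount lowers the fold change of weakly expressed genes. Procedures were tested on simulated data. The rest was done in Python 3.11.15 (pandas 2.3.3, numpy 2.4.6, scipy 1.17.1), with figures from matplotlib 3.10.9.

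Full values were given for DEGs, the highest member and the largest called rise and fall of each family, and a list of vascular members, and other members by direction and log2 fold change. The members, the lists and the tests were chosen with earlier results of these data known. Alternatives were pseudocounts of 1 and 0.1, no filter and a filter at 1 FPKM, median-of-ratios, TPM and quantile scaling, a block for the replicate number, robust eBayes, limma-voom, the members without look-alikes, and leaving out each library in turn. Leaving out Unc50 with the look-alikes was added after the data were seen.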

Additional observations from a re-analysis of the deposited data

How the results depend on the processing

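The number of members called higher was 16 and stayed between 13 and 19 under all alternatives but a filter at a mean of 1 FPKM, which tests fewer members and gave 10. The number called lower was 15 and ranged from 10 to 19. Leaving out 1 library gave 13 to 14 higher and 10 to 14 lower. The count of DEGs with higher expression, 2, depended on the scale of low values, and was 0 with a pseudocount of 1, 7 with a pseudocount of 0.1, 1 with the filter at 1 FPKM, 6 with TPM, 1 with quantile normalization and 9 with limma-voom, and 1 to 2 when a library was left out (1 without sham rat 3). It was 0 for lower expression throughout. The median log2 fold change of the members, -0.035, was -0.107 with the filter at 1 FPKM and -0.104 with quantile normalization, where that of all genes was 0.02 and -0.013. The difference in the log2 ratio of Efnb2 to Ephb4, -0.0015, was 0.00036 with a pseudocount and between -0.123 and 0.071 when a library was left out (0.057 without BPVB rat 2, 0.061 without BPVB rat 3 and 0.071 without sham rat 3). Near 0, Sema3f changed sign with median-of-ratios scaling (-0.021) and when a library was left out (-0.013 to 0.017), and Sema6a with TPM (0.027) and when a library was left out (-0.05 to 0.033). The cause of these shifts was not tested.

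The sources used here do not state that the replicate numbers pair the rats. The deviations of BPVB and sham rats with the same number correlated at only 0.025, 0.014 and 0.015, which cannot show whether they do. With the replicate number as a block, 15 members were called higher and 11 lower, without Ephb4, Plxna2, Plxnb3, Robo2 and Sema3g. Each rat correlated best with the rat of its own number, which is a hint from the data and not from the design.

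Beside the losses on leaving out a library, Efnb3 lost its call without a filter (adjusted p = 0.082), with median-of-ratios scaling (0.0501) and with quantile normalization (0.0675), Ephb4 with TPM (0.109), Plxna2 with a pseudocount of 1 (0.0509), without a filter (0.0622) and with TPM (0.0848), Plxnb3 with a pseudocount of 0.1 (0.0521), Robo2 with quantile normalization (0.0699), and Sema3g without a filter (0.0554) and with TPM (0.0591). Of the 32 tested members not called, 7 gained a call under at least 1 alternative. With 3 rats per group and few fragments, changes of members under 1 FPKM are known less precisely.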
